A study of Arachis hypogaea with 3 samples.

Results

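Stilbene synthase sequences of peanut (Arachis hypogaea) had few reads in aerial gynophores, many more in gynophores buried for some 3 days, and an intermediate number once small pods had formed. They were chosen as every sequence of the expression table whose best protein match is described with the word stilbene or resveratrol, in upper or lower case, which took 40 of 83579 sequences. The gynophore is a stalk that pushes the fertilized ovary into the ground, where the pod then swells. Of the 40 sequences, 36 are described as stilbene synthase, resveratrol synthase or a putative resveratrol synthesis enzyme. The other 4 match a Medicago protein whose description lists a chalcone and stilbene synthase domain beside very-long-chain 3-ketoacyl-CoA synthase, and their annotation terms are fatty acid biosynthetic process, response to radiation, multicellular organismal development and response to stress. These 4 go against the label, so they are described apart, and the 36 are called the stilbene synthases. No sequence described as an enzyme that modifies stilbenes, such as a methyltransferase or a glucosyltransferase, was among the 40.

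Stilbene synthase is a type III polyketide synthase that joins a p-coumaroyl-CoA starter with malonyl-CoA units and closes the chain into resveratrol, a stilbene. Chalcone synthase, a close relative, uses the same substrates but closes the chain differently, and so opens the way to flavonoids and anthocyanins. Resveratrol and its prenylated derivatives are known in peanut as phytoalexins, antimicrobial compounds made by wounded or infected tissue.

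All plants were of the cultivar Luhua 14 and grew on a farm. The S1 library was made from gynophores above the ground, green or purple and 3 to 5 cm long. For S2 the gynophores had spent about 3 days in soil, and for S3 they had grown in the dark and carried pods of 2 to 3 mm. The labels describe cutting off 1 cm at the tip for protein work and taking RNA from frozen gynophores, and the number of plants behind a library was not given in the sources used here.

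Poly(A) RNA was sequenced from 1 library a stage, with 20734295 counted reads, of which S1 held 33.3%, S2 32.2% and S3 34.5%. Levels are given as reads, as RPM, the reads per 1000000 counted reads of the library, and as RPKM, which also divides by the length in units of 1000 bases. Because each stage has 1 library, stage and library cannot be told apart, replicate error is unknown, and neither an SD nor a p-value is given. Intervals are 95% intervals, exact Poisson for a level and exact Clopper-Pearson for a ratio of libraries. They hold counting error alone and so set libraries, not stages, against each other. In bulk RNA, fewer cells with a transcript and less transcript per cell cannot be told apart.

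The 36 stilbene synthases are mostly short expressed sequence tags, which are single reads of cDNA clones. Of them, 31 have a public identifier that starts with JK and are 405 to 616 bases long, 4 are other public sequences and 1 is an assembled unigene of 159 bases. Over the 36 the lengths were 159 to 1182 bases with a median of 579, and 3 sequences were longer than 1000 bases. Several tags can come from the same gene, so the 36 are not 36 independent genes. Only reads that aligned to a single position were counted, so reads shared by near-identical copies are missing from both copies. Beyond the words of the rule, 31 of the 36 carried the annotation terms phenylpropanoid biosynthetic process and response to stimulus, 4 carried metabolic process and response to stimulus, and 1 carried no term.

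Summed over the 36 stilbene synthases there were 67 S1 reads, 1387 S2 reads and 460 S3 reads. These equal 9.69 RPM for S1 (7.51 to 12.3), 208 for S2 (197 to 219) and 64.3 for S3 (58.6 to 70.5). The 3 intervals do not overlap. The S2 sum was 21.4 times the S1 sum (16.8 to 27.8). The S3 sum was 0.310 times the S2 sum (0.278 to 0.344), which is 3.23-fold lower, and still 6.64 times the S1 sum (5.13 to 8.71). After rescaling by the median of ratios, the values were 22.0, 0.264 and 5.81 for the same 3 ratios, and rescaling by the upper quartile gave 22.5, 0.261 and 5.87. Every one of the 36 had a read in S2, whereas 24 had one in S3 and 13 in S1. Of 81517 sequences with a read in any library, 76970 had one in S2, 77112 in S3 and 75972 in S1. Most sequences thus had an S2 read, and the 36 differed from the table in S1 and S3. The reads were unevenly spread, with 64.9% of the 1914 reads in 5 sequences and 87.0% in 10.

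**Figure D1:**
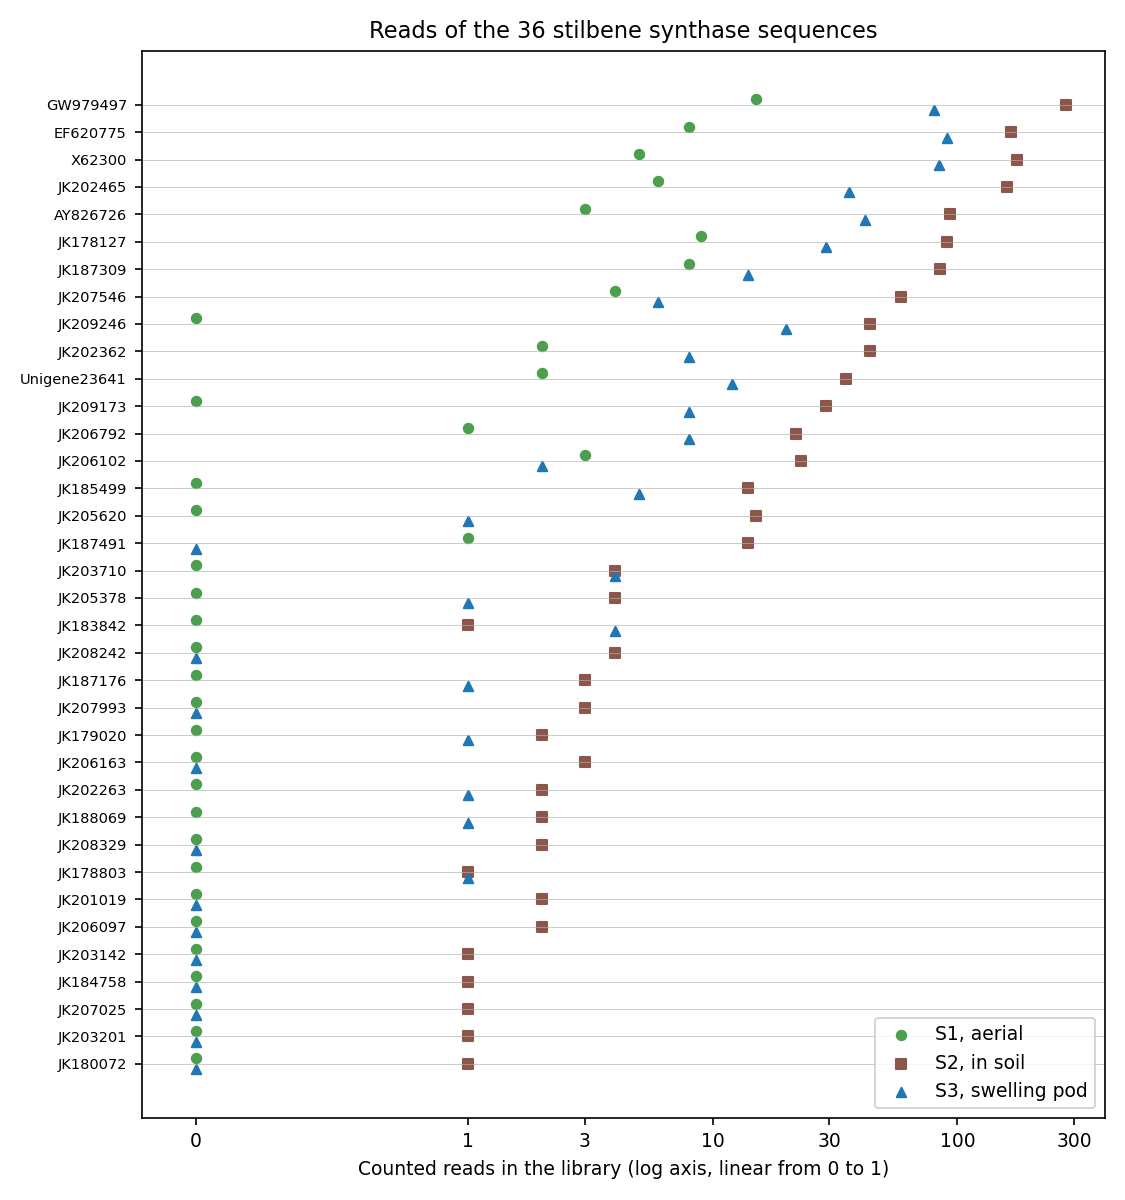
Counted reads of each of the 36 stilbene synthases, 1 line a sequence in order of total reads, on an axis that is linear from 0 to 1 and logarithmic above, with circles for S1, squares for S2 and triangles for S3. Every square lies at 1 read or more, while 23 circles and 12 triangles lie at 0.

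Of the 36, the RPKM was highest in S2 for 35, in S3 for 1 and in S1 for 0, and this held under both rescalings. Among the 81517 sequences of the table with a read, 25.0% were highest in S2, 44.8% in S3 and 30.2% in S1. The exception, JK183842, was singled out after its values were seen, and its 0, 1 and 4 reads over the 3 stages are too few for an order. A second count used ratios of RPKM + 1 of at least 2 times, which understates changes at low levels. By it, 18 of the 36 (50.0%) were higher in S2 than in S1 and 0 were lower, where 9.03% of all sequences with a read were higher and 9.19% lower. Between S3 and S2, 16 of the 36 (44.4%) were lower in S3 and 0 higher, beside 11.4% of all sequences lower and 18.6% higher. Between S3 and S1, 11 of the 36 (30.6%) were higher in S3 and 0 lower, beside 21.0% higher and 13.9% lower among all sequences.

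On the scale of log2(RPKM + 1) the median difference over the 36 was 1.01 for S2 over S1, against 0 over all sequences with a read. It was -0.87 for S3 over S2, against 0.18, and 0.31 for S3 over S1, against 0.16. Sequences with very few reads count as much in these medians as the others. With a library without reads set to a floor of 3 reads, the medians were 0.22, -0.62 and -0.020. This floor exceeds counts of fewer reads in the other library, which lowers the S2 over S1 median. Where S1 and S3 both had no read, it puts S3 slightly below S1 through the larger S3 total alone. The sign of -0.020 thus does not show a lower level in S3. The 19 stilbene synthases with under 10 reads over the 3 libraries had 0 S1 reads, 40 S2 reads and 14 S3 reads together. All 17 with at least 10 reads were highest in S2 and at least 2 times higher in S2 than in S1, and 16 of them were at least 2 times lower in S3 than in S2. These 17 met the limit of 10 reads mostly through S2, with 67 S1, 1347 S2 and 446 S3 reads. The limit thus favours sequences high in S2, and the counts are given as a description.

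GW979497, a 664-base public sequence described as resveratrol synthase, had the most reads, 15 for S1, 279 for S2 and 80 for S3. Its RPKM was 3.27 for S1 (1.83 to 5.39), 63.0 for S2 (55.8 to 70.8) and 16.9 for S3 (13.4 to 21.0). The 3 intervals are apart, with S2 the highest and S1 the lowest. The S2 level was 19.3 times that of S1 (11.5 to 34.9), and the S3 level was 0.268 times that of S2 (0.206 to 0.344) and 5.16 times that of S1 (2.95 to 9.64).

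The 3 sequences longer than 1000 bases were among the 4 with the highest S3 to S2 ratios of the 11 stilbene synthases described one by one. EF620775 (1182 bases) had 8 S1 reads, 166 S2 reads and 91 S3 reads, or an RPKM of 0.979, 21.0 and 10.8. X62300 (1130 bases) had 5, 175 and 84 reads across S1, S2 and S3, or an RPKM of 0.640, 23.2 and 10.4. AY826726 (1170 bases) had 3, 93 and 42 reads across S1, S2 and S3, or an RPKM of 0.371, 11.9 and 5.02. In each of them S2 was the highest library and S3 was well above S1. Their S2 levels were 21.5 (10.7 to 50.6), 36.2 (15.2 to 113) and 32.1 times (10.6 to 158) those of S1, in the same order of sequences. Their S3 levels were 0.512 (0.392 to 0.665), 0.448 (0.341 to 0.584) and 0.422 times (0.286 to 0.613) those of S2. Summed, the 3 sequences had 16 S1 reads, 434 S2 reads and 217 S3 reads, an S3 sum of 0.467 times that of S2 (0.395 to 0.551) and 13.1 times that of S1 (7.89 to 23.3).

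JK202465 (546 bases) carries the description putative resveratrol synthesis enzyme and had 6 S1 reads, 159 S2 reads and 36 S3 reads, or an RPKM of 1.59, 43.6 and 9.22. Its S2 level, the second highest of all 36, was 27.4 times that of S1 (12.3 to 75.9), and its S3 level was 0.211 times that of S2 (0.143 to 0.305). JK178127 (405 bases) had 9, 91 and 29 reads across S1, S2 and S3, or an RPKM of 3.22, 33.7 and 10.02. It had the smallest finite S2 to S1 ratio among the 11 stilbene synthases described one by one, 10.5 (5.28 to 23.6). Unigene23641, the single unigene, had 2, 35 and 12 reads across S1, S2 and S3, or an RPKM of 1.82, 33.0 and 10.6, and its S2 to S1 ratio of 18.1 has a wide interval of 4.66 to 156. This 159-base sequence matches a Bauhinia protein with an E-value of 3.25e-08.

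A further 4 tags had their highest RPKM between 11.0 and 22.3, each in S2. JK187309 (570 bases) had 8, 85 and 14 reads across S1, S2 and S3, or an RPKM of 2.03, 22.3 and 3.44. JK207546 (614 bases) had 4, 59 and 6 reads, or an RPKM of 0.943, 14.4 and 1.37. JK202362 (560 bases) had 2, 44 and 8 reads, or an RPKM of 0.517, 11.8 and 2.00. For these 3 tags the S3 to S1 interval held 1, with ratios of 1.69 (0.662 to 4.65), 1.45 (0.344 to 6.99) and 3.87 (0.772 to 37.4), so a difference between S3 and S1 was not detectable at this depth. The S3 level of JK207546 was 0.0949 times that of S2 (0.0335 to 0.219), the lowest such ratio among the 11. JK209246 (601 bases) had 0 S1 reads, 44 S2 reads and 20 S3 reads, or an RPKM of 0, 11.0 and 4.65. Against a floor of 3 reads in the S1 library, it was 15.2-fold higher in S2 and 6.44-fold higher in S3. With 0 S1 reads, its counting intervals of S2 over S1 and S3 over S1 begin at 11.8 and 4.77 and have no upper end.

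**Figure D2:**
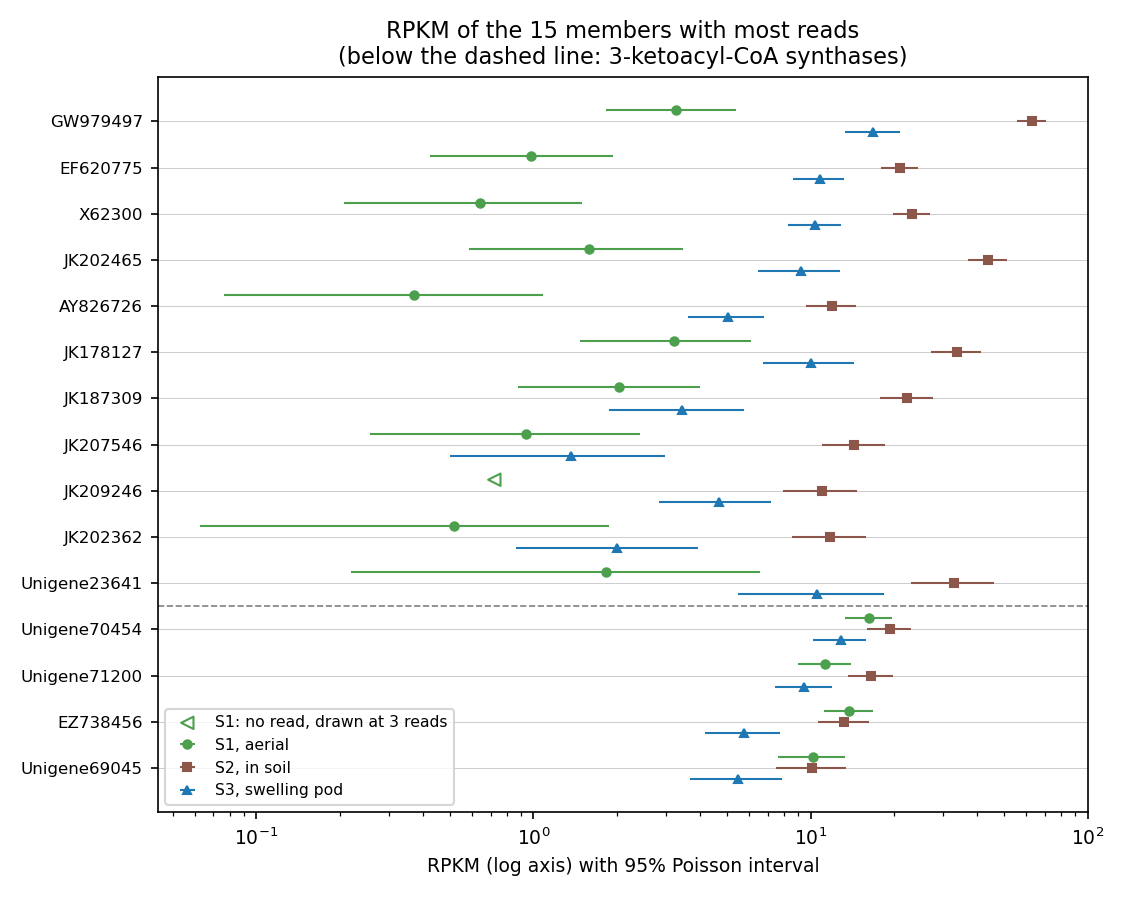
RPKM of the 15 sequences with the most reads on a log axis, with bars for 95% exact Poisson intervals, circles for S1, squares for S2 and triangles for S3, and an open triangle at the floor of 3 reads for JK209246, which had no S1 read. The 11 stilbene synthases, above the dashed line, are highest in S2 at 11.0 to 63.0, whereas the 3 symbols of the 4 very-long-chain 3-ketoacyl-CoA synthase sequences below it lie close together.

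Among these 11 sequences the intervals of S2 over S1 overlapped, while those that involve S3 did not all do so. The 10 intervals of a finite S2 to S1 ratio all share the range of 15.2 to 23.6. For S3 over S2 they share no range, since the interval of EF620775 begins at 0.392 and that of JK207546 ends at 0.219. For S3 over S1 they share none either, since X62300 begins at 6.69 and JK187309 ends at 4.65. The retained level in S3 thus varied among the sequences by more than counting error.

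**Figure D3:**
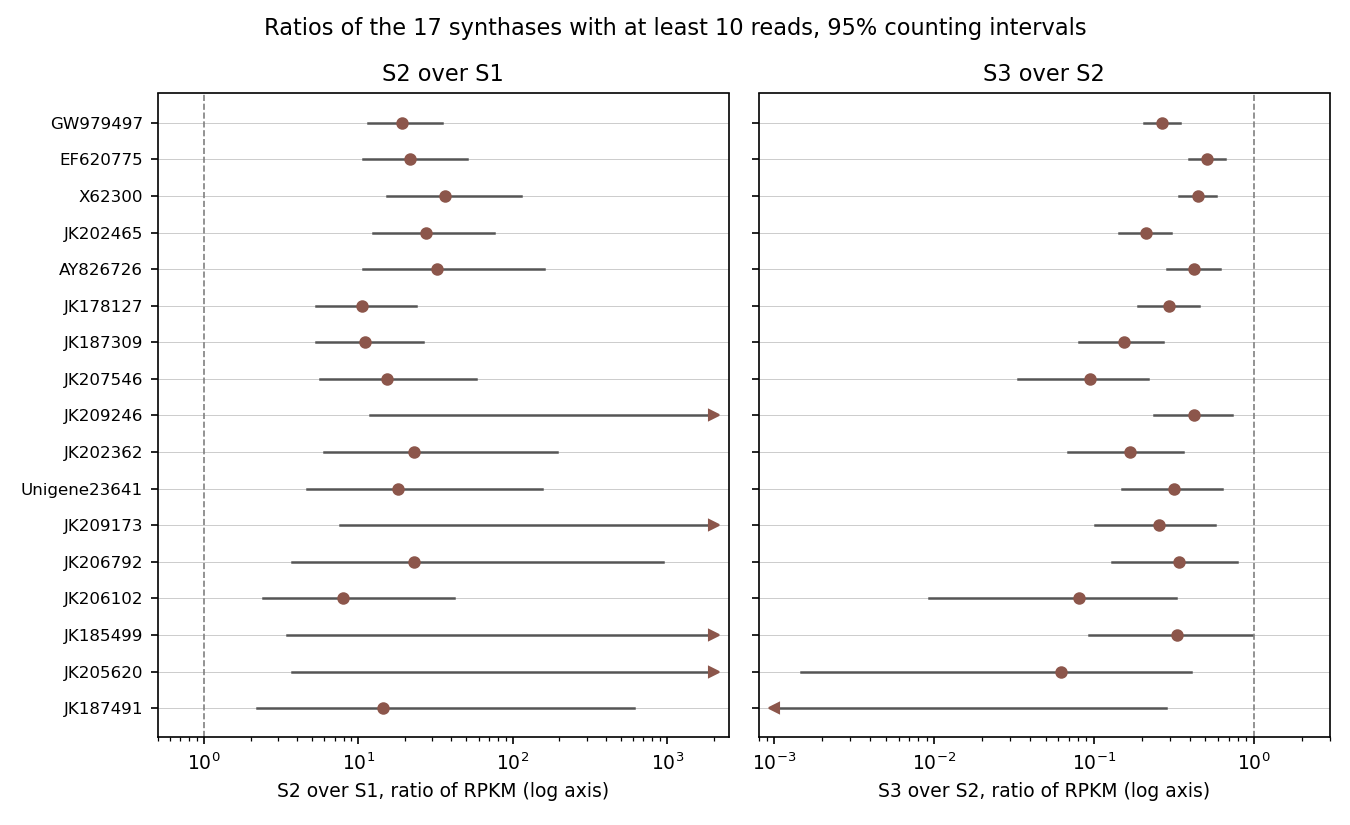
Ratios of RPKM for S2 over S1 (left) and S3 over S2 (right) of the 17 stilbene synthases with at least 10 reads, on log axes, with 95% Clopper-Pearson intervals as lines, a dashed line at a ratio of 1, and arrowheads where a library had no read and the interval has no end. All 17 intervals lie above 1 on the left and below 1 on the right, for sequences that met the limit of 10 reads mostly through S2.

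The remaining 25 stilbene synthases, all JK tags, ranged in RPKM over 0 to 0.751 (S1), 0.243 to 7.52 (S2) and 0 to 1.94 (S3). Together they had 5 S1 reads, 157 S2 reads and 38 S3 reads, an S2 sum of 32.5 times that of S1 (13.6 to 102). Of the 25, 24 (96.0%) were highest in S2, beside 25.0% of all sequences with a read. In RPKM + 1, 7 (28.0%) were at least 2 times higher in S2 than in S1, beside 9.03% of all. Several of these tags had 1 read in total, so their highest stage rests on that read. Over the 36, the 23 sequences without a read in S1 had 142 reads in S2 and 48 in S3. These 23 were picked for having no S1 read, so sums above S1 were fixed in advance. Their counts are therefore given as a description only. Taking the 36 one by one, the interval of S2 over S1 lay above 1 for 17 and below 1 for 0, beside 11.4% above and 12.9% below among all sequences with a read. That of S3 over S2 lay below 1 for 17 and above 1 for 0, beside 14.5% below and 23.3% above among all. That of S3 over S1 lay above 1 for 10 and below 1 for 0, beside 24.8% above and 17.6% below among all.

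The sequences can also be grouped by the protein that each matches best, named here by its public identifier. The 13 that match the resveratrol synthase ABY86219 had 34 S1 reads, 544 S2 reads and 141 S3 reads, their S2 sum being 16.6 times their S1 sum (11.7 to 24.2). The 5 that match ADJ17767 had 5, 105 and 14 reads across S1, S2 and S3, with a ratio of 21.7 (9.03 to 68.4). The 7 that match stilbene synthase 3 (P51069) had 4, 100 and 31 reads, with a ratio of 25.9 (9.80 to 96.9). All 3 groups were thus highest in S2, and their S2 to S1 intervals overlap. Their S3 to S2 ratios were 0.242 (0.200 to 0.292), 0.124 (0.0658 to 0.218) and 0.289 (0.187 to 0.437), against 0.479 (0.386 to 0.593) for EF620775 and AY826726, which share the match AAX32891. The last interval lies above those of the ABY86219 and ADJ17767 groups. Of the other groups, the 3 that match CAW30730 had 6 S1 reads, 161 S2 reads and 40 S3 reads, the 2 that match AAF71253 had 0, 6 and 5, and the 2 that match ADJ17765 had 0, 2 and 0.

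The JK tags as a class did not share this pattern. Of the 31 stilbene synthases among them, 30 were highest in S2, whereas 26.5% of the 10361 other JK tags with a read were. In RPKM + 1, 6.85% of those other tags were at least 2 times higher in S2 than in S1. The 31 had 34 S1 reads, 639 S2 reads and 151 S3 reads.

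Differences of this size were uncommon in the table. Among 51706 sequences with at least 30 reads over the 3 libraries, 926 (1.79%) had an RPKM + 1 in S2 at least 4 times that in S1, and for 421 of these RPKM + 1 was also at least 2 times lower in S3 than in S2. Of the 13 stilbene synthases with at least 30 reads, 13 met the first limit and 12 met both. At a limit of 10 times on the same scale of RPKM + 1, which understates the ratios of low sequences, 182 of the 51706 sequences (0.352%) and 6 of the 13 stilbene synthases passed. These shares are given as a description, since the sequences of a family are not independent of each other and most of their reads, which decide the limit of 30, came from S2.

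The deposited table also gives the percent of each sequence that reads cover. In S2 the 175 reads of X62300 covered 31.4% of its bases and the 93 reads of AY826726 covered 25.8%. For EF620775 166 reads covered 56.4%, for JK202465 159 reads covered 46.9%, and for Unigene23641 35 reads covered 98.7%. All 14 stilbene synthases with at least 20 reads in S2 were covered less than reads placed at random would give, by a median of 32.1 points (1.26 to 72.3). Over 10317 public sequences of 400 to 1200 bases with at least 20 reads in S2, the median gap was 27.2 points, with quartiles of 14.7 and 43.1. The median gap of the stilbene synthases thus lay between the quartiles of these sequences. Of the 14, JK206102 was covered least, 15.4% by 23 reads. For this tag and for X62300, AY826726, EF620775 and JK202465 the counted reads came from part of the sequence. Their RPKM divides by the whole length and so understates the level over that part. Whether the uncovered bases are those shared with close copies was not tested.

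**Figure D4:**
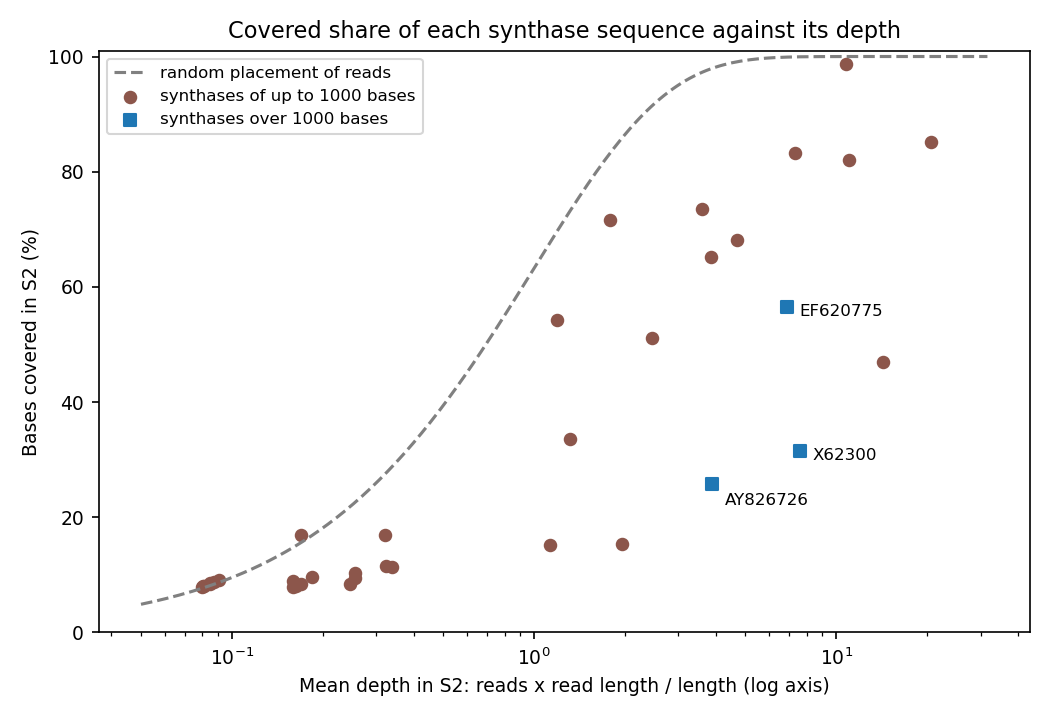
Percent of bases covered in S2 (linear axis) against mean depth in S2 (reads times read length over sequence length, log axis) of the 36 stilbene synthases, with squares for the 3 over 1000 bases and a dashed curve for reads placed at random. The 14 with at least 20 S2 reads lie under the curve, X62300 at 31.4% and Unigene23641 at 98.7%.

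The 4 sequences described as very-long-chain 3-ketoacyl-CoA synthase, an enzyme that lengthens fatty acids, had another pattern. Unigene70454 (916 bases) had 103 S1 reads, 118 S2 reads and 84 S3 reads, or an RPKM of 16.3, 19.3 and 12.8. Unigene71200 (1062 bases) had 83, 117 and 72 reads across S1, S2 and S3, or an RPKM of 11.3, 16.5 and 9.48. EZ738456 (1020 bases) had 97, 90 and 42 reads, or an RPKM of 13.8, 13.2 and 5.76, and Unigene69045 (739 bases) had 52, 50 and 29 reads, or an RPKM of 10.2, 10.1 and 5.49. In S1 all 4 lay above every stilbene synthase in RPKM. Summed, they had 335 S1 reads, 375 S2 reads and 227 S3 reads, and the S2 to S1 ratio was 1.16 (0.998 to 1.35), whose interval lies wholly below that of the stilbene synthases. The S3 sum was 0.565 times the S2 sum (0.477 to 0.668) and 0.655 times the S1 sum (0.551 to 0.778). Over all 40 sequences the S2 to S1 ratio was 4.54 (4.07 to 5.07), the S3 to S2 ratio 0.364 (0.333 to 0.398) and the S3 to S1 ratio 1.65 (1.46 to 1.87).

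The enzymes that supply the substrates of stilbene synthase were read from lists formed by words in the description. Phenylalanine ammonia-lyase opens the phenylpropanoid pathway, and its 18 sequences with a read had 788 RPM for S1, 1188 RPM for S2 and 726 RPM for S3. Cinnamate 4-hydroxylase acts next, and its 7 sequences had 543, 1103 and 335 RPM across S1, S2 and S3. The ligase 4-coumarate:CoA ligase makes p-coumaroyl-CoA, and its 14 sequences with a read had 331, 516 and 205 RPM. All 3 sums were highest in S2, with S2 to S1 ratios of 1.51 (1.46 to 1.56), 2.03 (1.95 to 2.11) and 1.56, far below the 21.4 of the stilbene synthases. The highest stage was S2 for 14 of the 18 ammonia-lyases, 6 of the 7 hydroxylases and 8 of the 14 ligases, beside 25.0% of all sequences. In RPKM + 1, 1, 5 and 4 of them were at least 2 times higher in S2 than in S1, beside 9.03% of all sequences. The median log2 differences of the 3 lists for S2 over S1 were 0.65, 1.07 and 0.78, against 0 over all sequences with a read.

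Of the sequences with the most reads in each list, the ammonia-lyase EZ740184 had an RPKM of 99.1 for S1, 178 for S2 and 218 for S3, so its level was highest in S3. The hydroxylase EZ727157 had an RPKM of 230 for S1, 447 for S2 and 135 for S3. The ligase Unigene15901 had an RPKM of 43.1 for S1, 56.5 for S2 and 13.5 for S3. Acetyl-CoA carboxylase, which makes malonyl-CoA, had 18 sequences with 229 RPM for S1, 197 RPM for S2 and 84.9 RPM for S3. Of the 18 in this list, 14 were highest in S1, beside 30.2% of all sequences with a read. Its S2 to S1 ratio was 0.859, and its median log2 difference was -0.21, so this list as a whole was not higher in S2. Most reads of the list came from sequences described as biotin carboxylases or biotin carboxyl carrier proteins, so its sums mainly describe these. EZ721293, described as acetyl-CoA carboxylase 4 and picked out after its values were seen, had an S2 to S1 ratio of 1.70 (1.24 to 2.36). For FJ227953, described as acetyl-CoA carboxylase 1, it was 0.609 (0.249 to 1.41). Which of these sequences supply stilbene synthase was not tested.

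Chalcone synthase, which uses the same substrates, was lower in S2 than in S1. Its 7 sequences, of which 1 is described as a 6'-deoxychalcone synthase, a name used for a reductase, had 468 RPM for S1, 174 RPM for S2 and 18.0 RPM for S3. The S2 to S1 ratio was 0.371 (0.347 to 0.397) and the S3 to S2 ratio 0.104 (0.0859 to 0.125). Of the 7, 5 had their highest RPKM in S1 and 2 in S3, beside 30.2% and 44.8% of all sequences with a read. In RPKM + 1, the S2 value was lower than the S1 value by 2 times or more for 3, and higher by as much for 2. Over all sequences with a read these shares were 9.19% and 9.03%. The median log2 difference of the list was -0.92. JK153418, the chalcone synthase with the most reads, had an RPKM of 342 for S1, 123 for S2 and 8.14 for S3. For every 100 reads of the chalcone synthase list there were 2.07 stilbene synthase reads for S1 (1.60 to 2.64), 120 for S2 (111 to 129) and 357 for S3 (293 to 437). The 3 intervals do not overlap, and a scaling of the libraries cannot change these ratios.

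Chalcone reductase, 5 sequences, had 97.4 RPM for S1, 47.2 RPM for S2 and 29.9 RPM for S3, and its leading sequence EZ722975 had an RPKM of 63.0, 25.5 and 12.7. Its median log2 difference for S2 over S1 was 1.17, of the opposite sign to the sum. Chalcone isomerase, which closes the flavanone ring, had 8 sequences with a read and 245, 415 and 172 RPM across S1, S2 and S3, with a median log2 difference for S2 over S1 of -0.10, again opposite in sign to the sum. Its leading sequence EZ755568, described as chalcone isomerase 2, had an RPKM of 20.7 for S1, 147 for S2 and 71.0 for S3, its S2 level being 7.10 times that of S1 (5.91 to 8.58). This course, highest in S2 and above S1 in S3, is that of the stilbene synthases at a smaller ratio. No sequence was described as another type III polyketide synthase, and none named MYB14 or MYB15, regulators of stilbene synthase genes in grape, as a whole word. These letters began a longer MYB number of soybean in 6 sequences, which summed to 16.2, 18.3 and 29.8 RPM over the 3 stages.

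**Figure D5:**
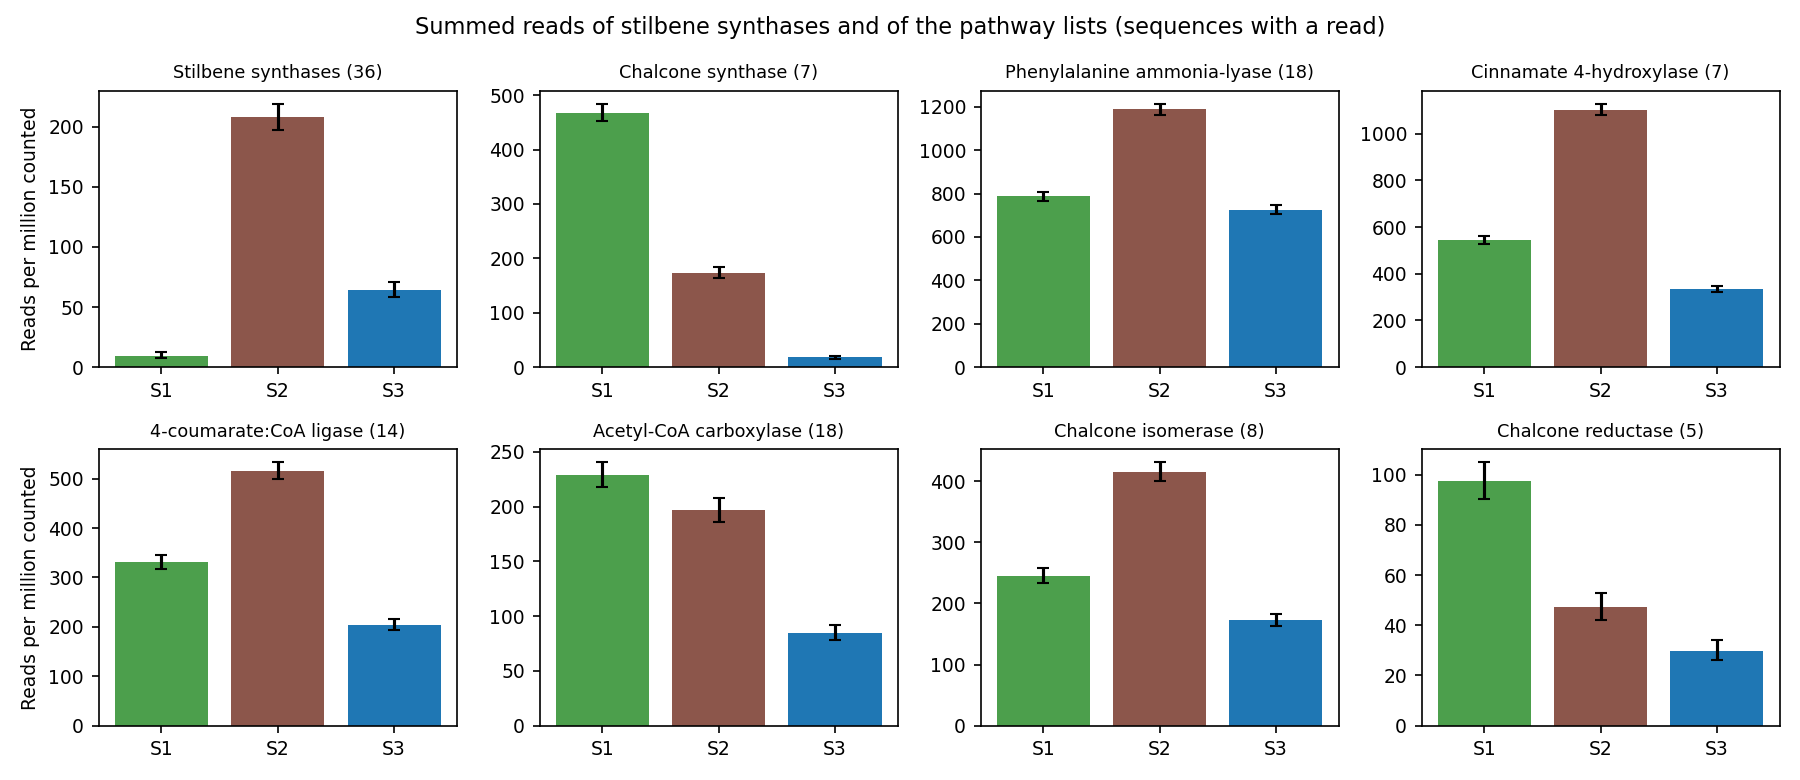
Summed reads per 1000000 counted reads of the stilbene synthases and of 7 lists of related enzymes in S1, S2 and S3 as bars from 0, with 95% Poisson intervals as error bars, a scale of its own in each panel, and the number of sequences with a read in brackets. The stilbene synthases stand at 9.69, 208 and 64.3 over the 3 stages, and chalcone synthase at 468, 174 and 18.0.

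Markers of other tissue and of defence moved between the same libraries. The 52 of 57 green tissue sequences with a read, chlorophyll-binding, photosystem and Rubisco small subunit proteins, had 3868 RPM for S1, 215 RPM for S2 and 373 RPM for S3. The 45 of 58 seed protein sequences with a read had 658, 910 and 1062 RPM across S1, S2 and S3. The 61 of 65 sequences of the defence list, which holds pathogenesis-related proteins, chitinases and glucanases, had 2106, 2270 and 929 RPM. Of these 61, 40 were highest in S2, beside 25.0% of all sequences with a read. In RPKM + 1, 28 exceeded their S1 value by 2 times or more in S2, and 4 were lower by as much, beside 9.03% and 9.19% of all. The median log2 difference for S2 over S1 was -1.52 over the green tissue list, 0.0067 over the seed list and 0.78 over the defence list. For S3 over S1 the seed median was 0, so the higher seed sums were not shared by the list as a whole. The part of any of these in the stilbene synthase values was not tested.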

How the data were processed

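The authors sequenced poly(A) RNA of gynophores at 3 stages, 1 library each. The deposited read counts hold reads that the authors aligned to a single position of a reference of unigenes and public peanut sequences, and the deposited RPKM values divide these by sequence length and library total (largest relative deviation 8.42e-09). The deposited coverage is the percent of bases covered. The name of the aligner was not given in the sources used here. Sequences with 1 read covered 49 bases.

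RPKM was used as deposited. Ratios used RPKM or summed reads per 1000000 counted reads (RPM), and medians and counts past 2 times used log2 of RPKM with a pseudocount of 1, over the 81517 sequences with a read. Intervals are 95% exact Poisson or exact Clopper-Pearson, with a floor of 3 reads where a library had none. No test across samples was made, and 0 per-sample columns were left unused. The 3 libraries hold 32.2% to 34.5% of 20734295 counted reads each.

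Named sequences are the 15 members with the most reads, any other with an RPKM of at least 10, and the leading sequence of each of 10 pathway lists formed by words in the description. The markers formed 3 further lists. The members and lists were chosen with earlier results of these data known. The 9 other settings were both rescalings (by the upper quartile, and by the median of ratios over sequences whose RPKM reached 1 in each library), a pseudocount of 0.1, at least 10 reads, at least 300 bases, descriptions naming synthase only, unigenes only, public sequences only and leaving out the member with the most reads. Once the data had been seen, 2 more were added, leaving out the 4 sequences of very-long-chain 3-ketoacyl-CoA synthase and setting libraries without reads to the floor. The methods were checked on data simulated from sequences with more S1 reads than any stilbene synthase had. The check therefore does not cover S1 counts as low as theirs. Of the 40 identifiers, 0 matched the supplied peanut gene list, so no positions are given. Scripts ran in Python 3.11.15 (scipy 1.17.1, numpy 2.4.6, pandas 2.3.3), and matplotlib 3.10.9 drew the figures.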

Additional observations from a re-analysis of the deposited data

How the results depend on the processing

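No paired analysis was possible because only 1 library stands for each stage, and leaving out a library would leave a stage without any. The values here are over all 40 sequences, and 89 of 137 recomputed values over 14 results stayed inside the 95% interval of the ratio or median as first computed, or, for counts of sequences, within 1.5 times. With synthase descriptions only, the summed ratios were 20.8 (S2 over S1), 0.320 (S3 over S2) and 6.66 (S3 over S1), and 0 sequences were highest in S1, 0 highest in S3 and 0 lower in S3 than in S1. Without the 3-ketoacyl-CoA synthases, an alternative chosen after seeing the data, the ratios were 21.4, 0.310 and 6.64, with 0 highest in S1 and 0 lower in S3 than in S1. Unigenes only, which are 3 of those synthases and Unigene23641, gave summed ratios of 1.38, 0.575 and 0.793, the last of them reversed. They gave medians of 0.37 (S2 over S1) and -0.28 (S3 over S1), 1 for highest in S1, 3 for S2 and 0 for S3, 1 higher in S2 than in S1, 1 higher and 0 lower in S3 than in S1, and 1 lower in S3 than in S2. Public sequences only gave 9.22, 0.317 and 2.92, with 1 highest in S1. Leaving out GW979497 gave an S2 to S1 ratio of 3.97. Rescaling by the median of ratios gave 0.311 (S3 over S2), 1.45 (S3 over S1) and 1 highest in S1, and the upper quartile gave 0.307 (S3 over S2) and 0 highest in S1. A pseudocount of 0.1 gave medians of 3.14, -1.76 and 1.66 for S2 over S1, S3 over S2 and S3 over S1. It also gave 36 higher in S2 than in S1, 21 higher and 2 lower in S3 than in S1, and 1 higher and 30 lower in S3 than in S2. With at least 10 reads the medians were 2.99, -1.54 and 1.10, with 19 highest in S2 and 0 in S3. With the floor of 3 reads, also chosen after seeing the data, the medians were 0.22 for S2 over S1 and -0.020 for S3 over S1. Apart from how the floor acts, as given above, the cause of these shifts was not tested. Depth limits the stilbene synthases in S1, where 67 reads stand behind the sum.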

Other observations

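Prenyltransferases add the isoprenoid side chains of many legume flavonoids and stilbenoids, and 13 of the 14 sequences of that list had a read, in a list that also takes in enzymes acting on proteins. Their sums, in reads per 1000000 counted reads (RPM), were 253 RPM for S1, 323 RPM for S2 and 356 RPM for S3. The sums hold both kinds, so they do not give the course of the enzymes acting on flavonoids or stilbenoids. Unigene72361, described as a protein prenyltransferase and picked out after its values were seen, had an RPKM of 13.3 for S1, 15.8 for S2 and 51.2 for S3. The list's sequence with the most reads, GW958501, described as an enzyme that prenylates naringenin, had an RPKM of 135 for S1, 139 for S2 and 36.2 for S3. The 3 flavonoid prenyltransferases were chosen after their values were seen. GW992349 had 3 S1 reads, 106 S2 reads and 90 S3 reads, or an RPKM of 0.960, 35.1 and 27.9, and its S2 level was 36.6 times that of S1 (12.2 to 180). GW990733 had 1, 89 and 86 reads across S1, S2 and S3, or an RPKM of 0.231, 21.3 and 19.2, an S2 to S1 ratio of 92.2 with an interval of 16.1 to 3681. For both, the S3 to S2 interval held 1, with ratios of 0.793 (0.592 to 1.06) and 0.902 (0.663 to 1.23), so no difference of S3 from S2 could be detected with these reads. Unigene44261 had 11, 27 and 0 reads, or an RPKM of 6.72, 17.1 and 0.

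A second chalcone isomerase 2 sequence, EZ755567, likewise chosen after its values were seen, had an RPKM of 18.5 for S1, 139 for S2 and 57.8 for S3. Its S2 to S1 ratio of 7.55 (6.16 to 9.33) overlaps that of EZ755568. Of the chalcone synthase list, GW982985 ran against the sum, with 9 S1 reads, 26 S2 reads and 35 S3 reads, or an RPKM of 2.05, 6.13 and 7.70, and an S3 to S1 ratio of 3.76 (1.77 to 8.89).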
